A study of Mus musculus with 24 samples.

Results

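The transforming growth factor beta (TGF-beta) pathway was read through 9 genes, which were the 3 ligands Tgfb1, Tgfb2 and Tgfb3, the receptors Tgfbr1, Tgfbr2 and Tgfbr3, the latency protein gene Ltbp1, and the feedback genes Smad7 and Skil. Members were all array probes whose gene name equals 1 of these symbols, which gave 16 of the 55681 probes on the array. Mammary gland RNA was profiled from female mice of 2 inbred strains, BALB/c and SPRET/EiJ, a strain of Mus spretus. All mice were 8-9 weeks old at exposure and received either a single whole-body X-ray dose of 10 cGy (low-dose ionizing radiation, LDIR) or a sham exposure. BALB/c glands were taken 2, 4 and 8 weeks later and SPRET/EiJ glands at 4 weeks only, with 3 mice, lettered A to C, in each of the 8 groups and 1 array per mouse. The RNA is that of the whole gland, and in such bulk samples fewer cells of a type and less RNA per cell cannot be told apart.

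TGF-beta ligands are secreted in a latent complex in which latent TGF-beta binding proteins tether them to the extracellular matrix. Once released, a ligand is bound by the type II receptor (Tgfbr2), which phosphorylates the type I receptor (Tgfbr1), which in turn phosphorylates SMAD transcription factors, and Tgfbr3 (betaglycan) presents ligand to them. Smad7 and Skil (SnoN) are induced within the pathway and restrain it, Smad7 at the receptor and Skil at the SMAD complex. In the mammary gland the pathway is known for restraining ductal growth and epithelial proliferation, and ionizing radiation is a known activator of latent TGF-beta.

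The probes that the results turn on are shown first, as the array design gives them (5′ to 3′, mm9). The bases of the SPRET/EiJ transcripts were not analysed here. The Tgfb1 and Tgfb2 probes are shown because these ligands gave strain differences of opposite sign. They cover a related stretch of the coding sequence, and capitals mark the bases that are the same in their best alignment without gaps, 28 of 41 aligned bases (68.3%).
Tgfb1, chr7:26489877-26489936, plus strand: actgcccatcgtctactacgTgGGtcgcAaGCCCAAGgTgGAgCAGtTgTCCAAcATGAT
Tgfb2 probe 1, chr1:188449333-188449392, minus strand: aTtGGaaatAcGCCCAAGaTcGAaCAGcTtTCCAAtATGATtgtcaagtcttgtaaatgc
The next 2 are the Tgfbr2 probe that ends at the stop codon, in capitals, and the Skil probe in the coding sequence, because the other probe of each gene gave another difference between sham strains.
Tgfbr2 probe 2, chr9:115999496-115999555, minus strand: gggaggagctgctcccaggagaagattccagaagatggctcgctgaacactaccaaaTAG
Skil probe 2, chr3:31016390-31016449, plus strand: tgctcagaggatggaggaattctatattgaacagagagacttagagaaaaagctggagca

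Levels are log2 signals relative to the 75th percentile of the same array, so that 0 is that percentile, and a level of 1 probe is set only against the same probe on other arrays. All 24 arrays gave a signal well above background for 14 of the 16 probes. Tgfbr1 probe 3 had one on 21 arrays and Tgfbr1 probe 4 on 5. Every one of the luminal, basal, white adipocyte and fibroblast markers examined was above background on every array. Each labelled mammary gland thus showed its epithelial and stromal markers. Amounts of the luminal markers differed between strains, as summed linear signal in units of the array's 75th percentile. At 4 weeks the 8 luminal markers summed to 151 to 311 in sham BALB/c and 25.7 to 139 in sham SPRET/EiJ. After LDIR they summed to 151 to 379 and 39.1 to 98.0. The part of luminal cells in the strain differences was not tested.

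On 3 arrays the 6 lymphocyte markers (T and B cell genes such as Cd3e, Cd79a and Ms4a1) stood apart, namely BALB/c 8-week sham A, BALB/c 8-week LDIR B and SPRET/EiJ 4-week LDIR A. Their mean log2 level was 2.99 to 3.64 there and -2.54 to -1.44 on the other 21 arrays. The summed linear signal of these markers, in units of the array's 75th percentile, was 81.3, 105 and 81.5 on the 3 arrays and 5.79 to 15.4 elsewhere. Member levels on these 3 arrays were set beside those of the other arrays of the same group. Of the 14 member probes above background on every array, 6 (Tgfb1, Smad7, both Skil probes and both Tgfbr2 probes) were the highest of their group on all 3 arrays, and 5 (both Tgfb2 probes, Tgfb3, Tgfbr3 and Ltbp1 probe 1) were the lowest. These were 42.9% and 35.7%, against 18.9% and 28.2% of the 29317 probes of the whole array that met the same condition. The share of members that were lowest was thus near that of all probes. The part of lymphocyte RNA in the member values was not tested, and each result that uses 1 of these arrays is therefore also given without it.

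**Figure D1:**
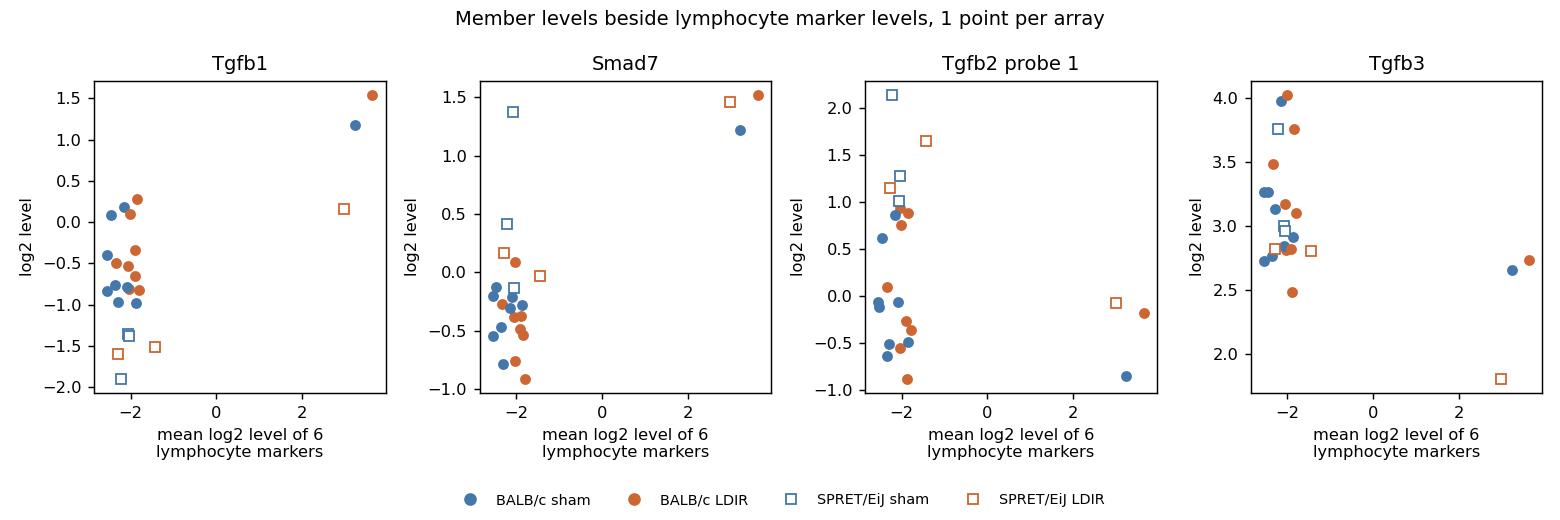
Log2 level of Tgfb1, Smad7, Tgfb2 probe 1 and Tgfb3 (vertical axes) against the mean log2 level of the 6 lymphocyte markers (horizontal axes), with 1 point per array, filled circles for BALB/c and open squares for SPRET/EiJ. The 3 arrays at 2.99 to 3.64 lie far to the right of the other 21, and within their groups they carry the highest Tgfb1 and Smad7 and the lowest Tgfb2 and Tgfb3.

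Probes were called with limma at the thresholds of the study's methods, an unadjusted p below 0.001 between strains and below 0.05 otherwise, with more than 1.5-fold change in both. Below, "called" means past those thresholds, and the p printed is the one adjusted over all probes. Few members were called in any comparison, and in each the share of all probes called is the background to read them against. Between the sham strains 0 of 16 member probes were called against 8.89% of all probes, and between the LDIR strains 0 of 16 against 5.67%. With the p adjusted over the array (Benjamini-Hochberg) and a limit of 0.05, 2 of 16 differed between sham strains against 18.8% of all probes, and 0 of 16 between LDIR strains against 11.1%.

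For LDIR against sham, 1 of 16 member probes was called in BALB/c at 2 weeks against 3.05% of all probes, 2 at 4 weeks against 4.83%, 0 at 8 weeks against 1.92%, and 0 in SPRET/EiJ against 2.21%. The LDIR change differed between strains for 2 probes against 3.59%, and between times in BALB/c for 0 against 3.73%. Over time in sham BALB/c 3 of 16 were called against 15.9%, and 5 of 16 against 19.9% without the array with high lymphocyte markers. In none of the LDIR comparisons did any member pass the adjusted p, the lowest being 0.775.

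Tgfb1, the most widely expressed ligand, made by immune and stromal cells among others, was higher at 8 weeks than earlier in BALB/c. It also read lower in SPRET/EiJ, a difference that was not called. In sham BALB/c its log2 level at 2 weeks was -0.83, -0.77 and -0.97, at 4 weeks -0.39, -0.99 and -0.78, and at 8 weeks 1.17, 0.19 and 0.09. After LDIR the 2-week arrays read -0.49, -0.34 and -0.81, the 4-week arrays -0.54, -0.65 and -0.82, and the 8-week arrays 0.10, 1.54 and 0.28. All 6 arrays of 8 weeks were at or above 0.09 and all 12 earlier arrays at or below -0.34, so the times did not overlap under either treatment. The largest difference between times in sham mice was 1.34 on the log2 scale, from 2 to 8 weeks (limma moderated F, called, adjusted p = 0.107). Without the 8-week sham array with high lymphocyte markers the difference was 0.99, also from 2 to 8 weeks (limma moderated F, adjusted p = 0.0720). The LDIR arrays, which that fit did not use, differed most from 4 to 8 weeks, by 1.31 (limma moderated F, adjusted p = 0.0931). From 2 to 8 weeks the LDIR arrays differed by 1.19. With 8-week LDIR array B put aside these LDIR values were 0.86 and 0.74. Tgfb1 was called in the fits that gave 0.99 and 1.31. With slide as a block the difference was 1.43 and was no longer called (limma, adjusted p = 0.877). Every 2-week array lay on slide 1 and every 8-week sham array on slide 2. Only 4-week sham array C, on slide 2, linked the slides in that fit, so its value rests on 1 array. Within slide 2 the 4-week arrays of both treatments read -0.82 to -0.54 and the 8-week arrays 0.09 to 1.17. The part of slide in the difference was not tested further. For all probes together the median of these sham time differences was 0.19, and it was -0.07 when arrays were quantile normalized.

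In SPRET/EiJ the level of Tgfb1 was -1.90, -1.36 and -1.38 in sham mice and 0.15, -1.60 and -1.52 after LDIR. Every sham SPRET/EiJ array lay below every sham BALB/c array of 4 weeks, a difference of 0.82 ± 0.24 (SE), or 1.77-fold (limma, adjusted p = 0.0645). Among LDIR mice the difference was 0.32 ± 0.49, and without SPRET/EiJ array A it was 0.89 ± 0.18 (limma, adjusted p = 0.0261). No slide held arrays of both strains at 4 weeks, so strain and slide cannot be told apart in any strain difference of that time. Slide 3, which held every SPRET/EiJ array, also held BALB/c arrays B and C of 8 weeks after LDIR. The LDIR minus sham difference of Tgfb1 in BALB/c was 0.31 ± 0.17 at 2 weeks, then 0.05 ± 0.21 and 0.16 ± 0.51 at the later times, none of which was called.

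Tgfb2, a ligand known for its role in development, differed between sham strains in the opposite direction to Tgfb1. Probe 1 read -0.12, -0.49 and -0.07 in sham BALB/c at 4 weeks and 2.13, 1.01 and 1.27 in sham SPRET/EiJ, with no overlap. The level was 3.24-fold higher in SPRET/EiJ, a log2 difference of -1.70 ± 0.32 for BALB/c minus SPRET/EiJ (limma, adjusted p = 0.0154). Probe 2 read -0.97, -0.73 and -0.43 in sham BALB/c against 1.32, -0.24 and 0.51, a difference of -1.24 ± 0.40 (limma, adjusted p = 0.0846). Both probes thus ran the same way, and over the 18 BALB/c arrays they followed each other with r = 0.90.

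Among LDIR mice Tgfb2 probe 1 read 0.93, -0.27 and -0.36 in BALB/c and -0.07, 1.15 and 1.64 in SPRET/EiJ, which overlapped, a difference of -0.81 ± 0.55. The low SPRET/EiJ value was array A. Without it the difference was -1.30 ± 0.46 (limma, adjusted p = 0.117). At 8 weeks sham BALB/c probe 1 read -0.85, 0.86 and 0.62, where the lowest is again the array with high lymphocyte markers, and at 2 weeks -0.06, -0.64 and -0.51. The difference between times was 0.61 and not called (limma moderated F, adjusted p = 0.759), but 1.14 and called without the 8-week array (adjusted p = 0.0704). Probe 2 gave 0.18 over all sham arrays and 0.53 without the same array, and was called in neither fit. As for Tgfb1, every 2-week array lay on slide 1 and every 8-week sham array on slide 2. The part of slide in the probe 1 call was not tested.

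Tgfb3, the ligand known for its rise during mammary involution, had LDIR differences of opposite sign in the strains. At 4 weeks it read 2.73, 2.91 and 2.85 in sham BALB/c and 3.17, 2.82 and 3.10 after LDIR. In SPRET/EiJ it read 3.76, 3.01 and 2.97 in sham and 1.81, 2.82 and 2.81 after LDIR, so that all LDIR arrays lay below all sham arrays. The LDIR change was 0.20 ± 0.17 in BALB/c and -0.76 ± 0.39 in SPRET/EiJ, neither called. The difference between these changes was 0.97 ± 0.44, which was called (limma interaction, adjusted p = 0.955). Without SPRET/EiJ array A it was 0.63 ± 0.34 and was not called (adjusted p = 0.902). The call was kept in 4 of the 12 fits that left out 1 array. It was also lost without any 1 of the BALB/c arrays, where the difference stayed at 0.90 to 1.07. Without SPRET/EiJ sham array A the difference was 0.71, again not called. At 8 weeks the sham levels were 2.66, 3.98 and 3.27 and the LDIR levels 4.02, 2.74 and 3.76, and in both groups the lowest was the array with high lymphocyte markers. The largest difference between sham times, from 4 to 8 weeks, was 0.47 and not called. Without 8-week sham array A it was 0.79 and called (limma moderated F, adjusted p = 0.227). Sham arrays A and B of 4 weeks lay on slide 1 and every 8-week sham array on slide 2. The part of slide in this call was not tested. Over the 18 BALB/c arrays Tgfb3 followed Tgfb2 probe 1 with r = 0.81. It did so with r = 0.80 over the 16 left without the BALB/c arrays with high lymphocyte markers.

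**Figure D2:**
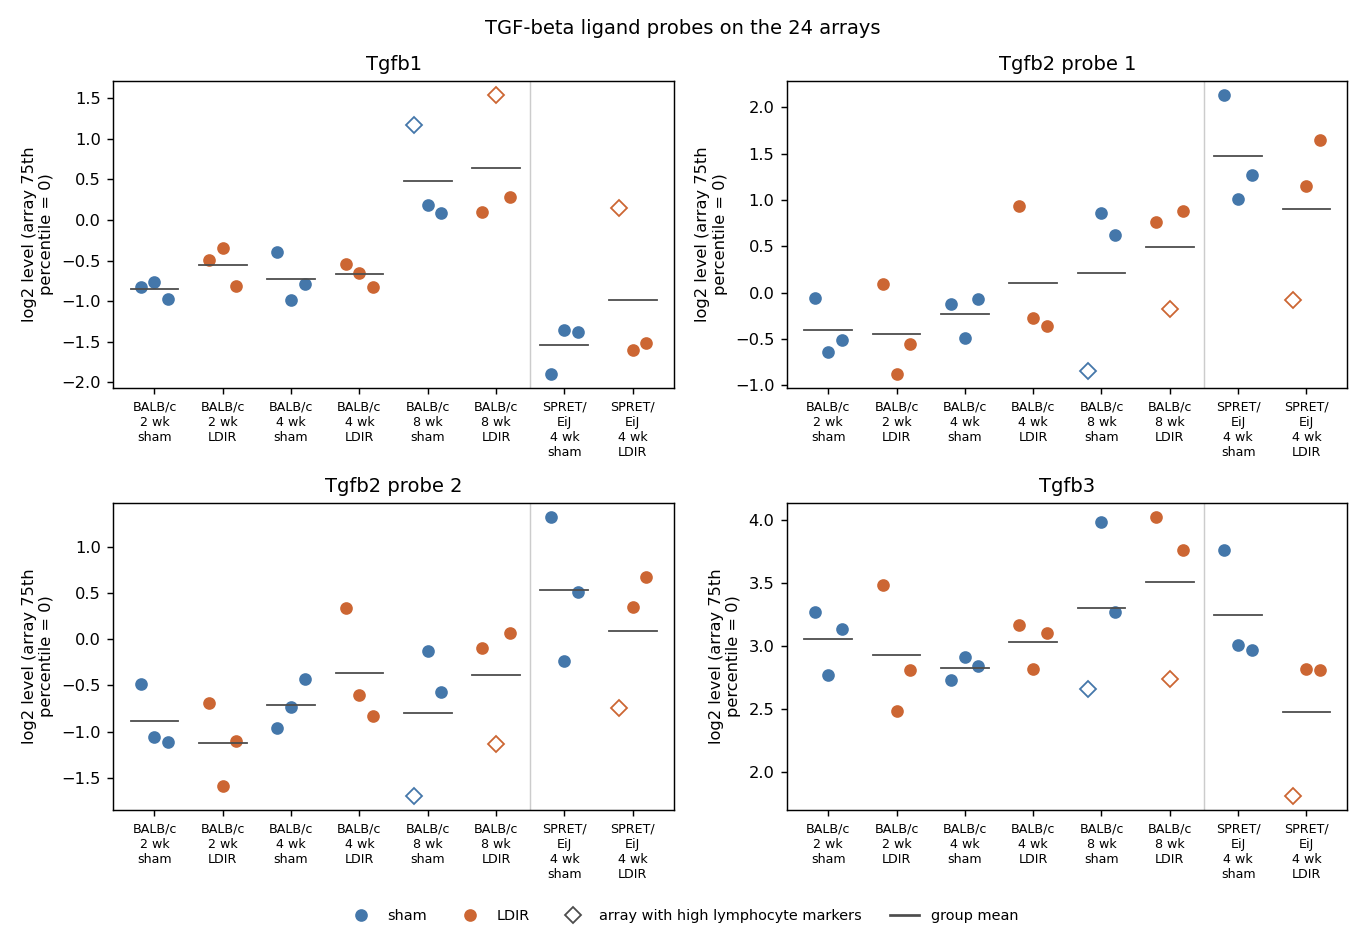
Log2 levels of the 4 ligand probes (vertical axes, array 75th percentile = 0) in the 8 groups, with points for arrays, lines for group means and open diamonds for the 3 arrays with high lymphocyte markers. Tgfb1 steps up at 8 weeks in BALB/c and lies at -1.90 to -1.36 in sham SPRET/EiJ, close to 2 of the 3 LDIR arrays of that strain, while Tgfb2 probe 1 lies highest in sham SPRET/EiJ, at 1.01 to 2.13.

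Ltbp1 encodes a latent TGF-beta binding protein. Probe 1 read 1.55, 1.503 and 1.17 in sham BALB/c at 2 weeks and 1.28, 0.76 and 0.55 after LDIR, a difference of -0.54 ± 0.23 that was not called (limma, adjusted p = 0.869), with overlapping groups. Without LDIR array A the difference was -0.75 and was called. At 4 weeks the change was -0.13 ± 0.23 and at 8 weeks -0.01 ± 0.38, and the change with LDIR was not shown to differ between times (limma moderated F, not called). Between sham strains probe 1 differed by -0.02 ± 0.23. Probe 2, designed on another transcript record, read -3.98 to -1.44 over the BALB/c arrays and was called nowhere. The probes of Ltbp1 followed each other only loosely over the BALB/c arrays, with r = 0.31.

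Tgfbr1 encodes the type I receptor kinase, and Tgfbr1 probe 1 separated the strains on all arrays of 4 weeks. It read 1.06, 1.17 and 1.28 in sham BALB/c at 4 weeks and 2.03, 2.00 and 2.07 in sham SPRET/EiJ, a difference of -0.86 ± 0.15, or 1.82-fold higher in SPRET/EiJ (limma, adjusted p = 0.0121). After LDIR it read 0.95, 1.18 and 1.105 in BALB/c and 1.87, 1.82 and 1.94 in SPRET/EiJ, a difference of -0.80 ± 0.20 (adjusted p = 0.0551). All 6 BALB/c arrays of 4 weeks lay at or below 1.28 and all 6 SPRET/EiJ arrays at or above 1.82. The SPRET/EiJ array with high lymphocyte markers, at 1.87, did not stand out here, and without it the adjusted p was 0.0316. Over all times and treatments the 18 BALB/c arrays spanned 0.84 to 1.34, below every SPRET/EiJ array.

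Tgfbr1 probe 2, Tgfbr1 probe 3 and Tgfbr1 probe 4 did not separate the sham strains. Probe 2, on the same transcript record, read -3.39, -3.63 and -3.04 in sham BALB/c and -2.79, -4.20 and -3.37 in sham SPRET/EiJ, which overlapped, and it followed probe 1 with r = 0.19 over the BALB/c arrays. Probes 3 and 4 were designed on other transcript records and lie at lower coordinates of the locus on chromosome 4. Probe 3 fell with time in sham BALB/c, from -3.60, -3.99 and -3.67 at 2 weeks through -3.43, -4.63 and -3.73 to -4.44, -5.39 and -5.50 at 8 weeks, with no overlap between the first and the last, a difference of -1.35 (limma moderated F, called, adjusted p = 0.177). In LDIR mice the same probe differed by -1.54 (limma moderated F, adjusted p = 0.0284), or -1.35 with 8-week LDIR array B put aside. It was well above background on 2 of the 3 LDIR arrays of 8 weeks, so the size of the LDIR fall is partly a bound. Without the 8-week sham array with high lymphocyte markers the sham difference was -1.69 (adjusted p = 0.0624). With slide as a block, where 4-week sham array C alone linked the slides, the sham difference was -1.65 and not called (limma, adjusted p = 0.896). The sham call was also lost without 8-week array B or C.

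Tgfbr1 probe 4 was the only member probe called between LDIR and sham at 2 weeks. It read -4.98, -5.60 and -5.58 after LDIR and -5.77, -6.38 and -7.38 in sham, a measured difference of 1.12 ± 0.43 (limma, adjusted p = 0.869). It was well above background on 2 of the 3 LDIR arrays and on none of the sham arrays, so that its level in sham is only a bound and the fold is at least 1.05. On the rest of the series it was above background on 3 arrays, of which BALB/c 8-week sham A (-3.95) and SPRET/EiJ LDIR A (-2.68) are arrays with high lymphocyte markers. Leaving out any 1 of 5 of the 6 arrays of 2 weeks ended this call.

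Tgfbr2, the ligand-binding type II receptor, was read by a probe near the end of the transcript (probe 1) and by the probe at the stop codon. Probe 1 rose with time in sham BALB/c, with 2-week levels of 3.49, 3.86 and 3.37, 4-week levels of 3.71, 3.79 and 3.73 and 8-week levels of 4.32, 4.15 and 4.26. The 8-week arrays lay above all others, by 0.67 over 2 weeks (limma moderated F, called, adjusted p = 0.193), and by 0.63 without 8-week array A (called, adjusted p = 0.196). The call was kept in 6 of the 9 fits that left out 1 array, and was lost without 2-week array A, 2-week array C or 8-week array C. With slide as a block, where 4-week sham array C alone linked the slides, the value was 0.69 and was not called (adjusted p = 0.964). In LDIR mice the 8-week levels of 4.36, 4.55 and 3.62 overlapped those of 4 weeks at 4.39, 3.77 and 4.08.

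Between strains the Tgfbr2 probes disagreed. Probe 1 differed by -0.19 ± 0.16 in sham and 0.20 ± 0.24 in LDIR mice. Probe 2 read -0.14, -1.12 and -0.31 in sham BALB/c against -0.94, -1.67 and -1.19 in sham SPRET/EiJ, a difference of 0.74 ± 0.33 with overlapping groups (limma, adjusted p = 0.181). After LDIR it read 0.21, -0.34 and -0.20 against -0.86, -1.28 and -1.17, with no overlap and a difference of 0.99 ± 0.25 (adjusted p = 0.0537), which was 1.11 ± 0.23 without SPRET/EiJ array A (adjusted p = 0.0277). Over the 18 BALB/c arrays the 2 probes did not follow each other (r = 0.05).

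Tgfbr3, the co-receptor betaglycan, read 3.41, 3.78 and 3.50 in sham BALB/c at 4 weeks and 4.32, 4.22 and 4.05 in sham SPRET/EiJ, without overlap and with a difference of -0.64 ± 0.18 (limma, adjusted p = 0.0565). After LDIR the SPRET/EiJ arrays read 2.86, 3.85 and 3.80, all below the sham arrays of that strain. That LDIR change was -0.70 ± 0.33 and was not called (limma, adjusted p = 0.972). Array A was the lowest, and without it the change was -0.37 ± 0.20, again not called. In BALB/c the LDIR change of Tgfbr3 was -0.20 ± 0.20, -0.01 ± 0.20 and -0.02 ± 0.36 at 2, 4 and 8 weeks.

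**Figure D3:**
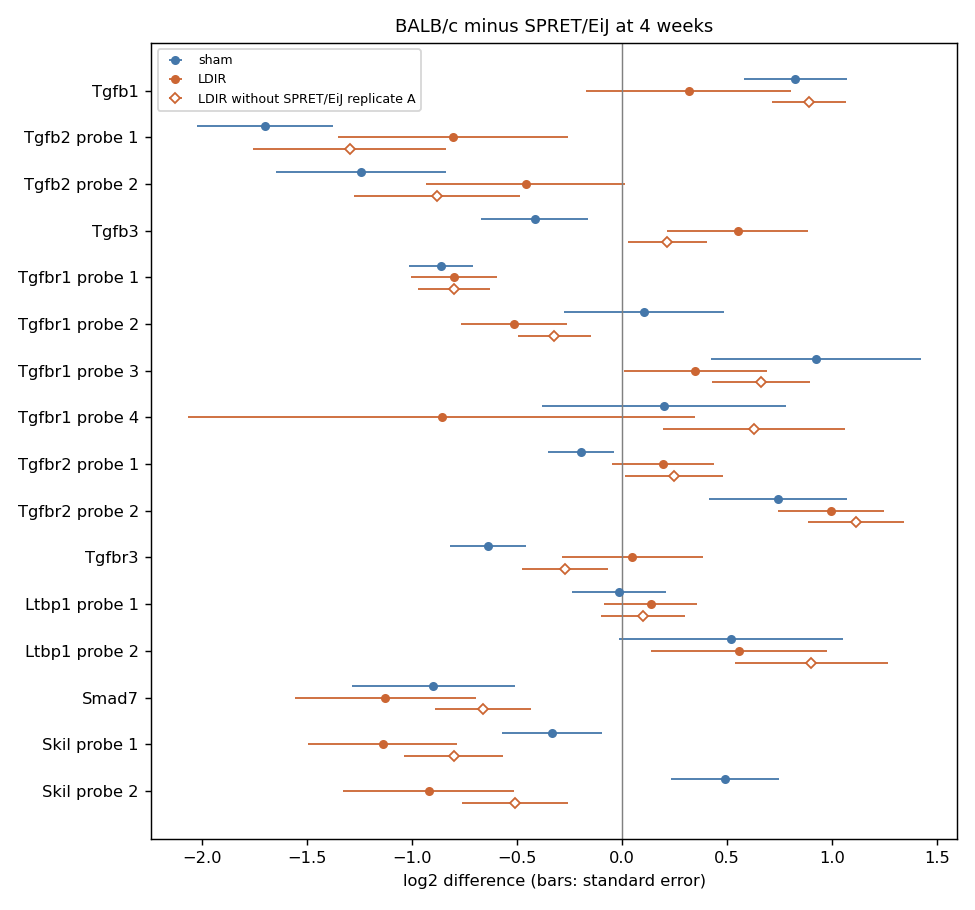
Log2 difference of BALB/c minus SPRET/EiJ at 4 weeks for each member probe (vertical axis), in sham mice, in LDIR mice and in LDIR mice without SPRET/EiJ array A (open diamonds), with bars for the standard error. Tgfb1 lies to the right, with 0.82 in sham, and Tgfb2 probe 1 (-1.70) and Tgfbr1 probe 1 (-0.86) to the left.

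Smad7, which recruits ubiquitin ligases to the type I receptor, separated the strains without passing the test. It read -0.54, -0.28 and -0.21 in sham BALB/c at 4 weeks and 0.42, 1.38 and -0.13 in sham SPRET/EiJ, and after LDIR -0.38, -0.49 and -0.91 against 1.46, 0.17 and -0.03. The 6 BALB/c arrays lay at or below -0.21 and the 6 SPRET/EiJ arrays at or above -0.13. The difference was -0.90 ± 0.39 in sham (limma, adjusted p = 0.170) and -1.13 ± 0.43 in LDIR mice (adjusted p = 0.162), or -0.66 ± 0.23 without array A (adjusted p = 0.109). In BALB/c Smad7 read 1.22 on 8-week sham A and 1.52 on 8-week LDIR B, both with high lymphocyte markers, and -0.91 to 0.09 on the 16 other arrays. Its correlation with Tgfb1 over the BALB/c arrays, r = 0.86 over 18, was 0.43 without them.

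Skil, which encodes a repressor of SMAD-driven transcription, was the member called after LDIR in BALB/c at 4 weeks, on both of its probes. Probe 1 read 0.67, 0.99 and 1.30 in sham and 0.56, 0.25 and 0.33 after LDIR, without overlap, a change of -0.61 ± 0.21, or 1.52-fold lower (limma, adjusted p = 0.775). Probe 2 read -2.34, -2.80 and -2.09 in sham and -2.69, -3.22 and -3.34 after LDIR, with overlap, a change of -0.67 ± 0.27, or 1.59-fold lower (adjusted p = 0.775). The probes lie on the same transcript and followed each other with r = 0.77 over the BALB/c arrays, so they are not separate evidence. With slide as a block the changes were -0.92 and -0.99. That fit in effect set the LDIR arrays against sham C alone, the only sham array on their slide and the highest on both probes. With normexp background correction they were -0.50 (limma, adjusted p = 0.763) and -0.37 (adjusted p = 0.759), neither called, and both calls also ended with the replicate letter as a block and in a fit of all 24 arrays. Sham A and B lay on another slide than the other 4 arrays. Leaving out 1 array at a time, probe 1 kept its call in 2 of 6 fits and probe 2 in 2 of 6.

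Markers of other cells moved at the same comparison. The summed linear signal of 5 macrophage markers was 24.2 to 43.5 in sham and 46.6 to 68.6 after LDIR, with 3 of 5 called higher. That of 6 basal markers was 45.5 to 56.2 against 34.6 to 47.5, with 2 of 6 called lower, and that of 5 brown adipocyte markers was 81.2 to 156 against 36.2 to 84.3, with 2 of 5 called lower. That of 6 fibroblast markers was 384 to 623 against 639 to 772, with 0 of 6 called. Of 6 skeletal muscle markers 1 was called higher, and no marker of the other lists was called. Of all probes 4.83% were called, and no marker passed the adjusted p. The part of these cells in the Skil change was not tested.

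At the other times Skil was not called in BALB/c. Probe 1 differed by -0.39 ± 0.25 at 2 weeks and by 0.28 ± 0.27 at 8 weeks, and probe 2 by -0.32 ± 0.25 and -0.03 ± 0.39. The largest difference between times was 0.89 for probe 1, between 4 and 8 weeks, and 0.65 for probe 2, and neither was called (limma moderated F).

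In SPRET/EiJ the Skil differences were positive and not called. Probe 2 read -2.58, -3.16 and -2.96 in sham and -1.34, -2.50 and -2.65 after LDIR, a change of 0.74 ± 0.40, or 0.33 ± 0.25 without array A. The BALB/c change minus the SPRET/EiJ change was -1.41 ± 0.51 (limma interaction, adjusted p = 0.955), and -0.999 ± 0.38 without SPRET/EiJ array A (adjusted p = 0.902), and was called in both fits. Probe 1 read 1.18, 1.63 and 1.16 in sham and 2.20, 1.44 and 0.92 after LDIR, a change of 0.20 ± 0.37 that turned to -0.14 ± 0.28 without array A, and its difference between strains was -0.81 ± 0.45, or -0.47 ± 0.35 without that array, neither called. Between sham strains the 2 probes differed in sign, with -0.33 ± 0.24 for probe 1 and 0.49 ± 0.26 for probe 2, neither called. Among LDIR mice both ran the same way and without overlap, with -1.14 ± 0.36 for probe 1 (limma, adjusted p = 0.0975) and -0.92 ± 0.41 for probe 2 (adjusted p = 0.220), again not called. Without SPRET/EiJ array A these were -0.80 and -0.51.

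**Figure D4:**
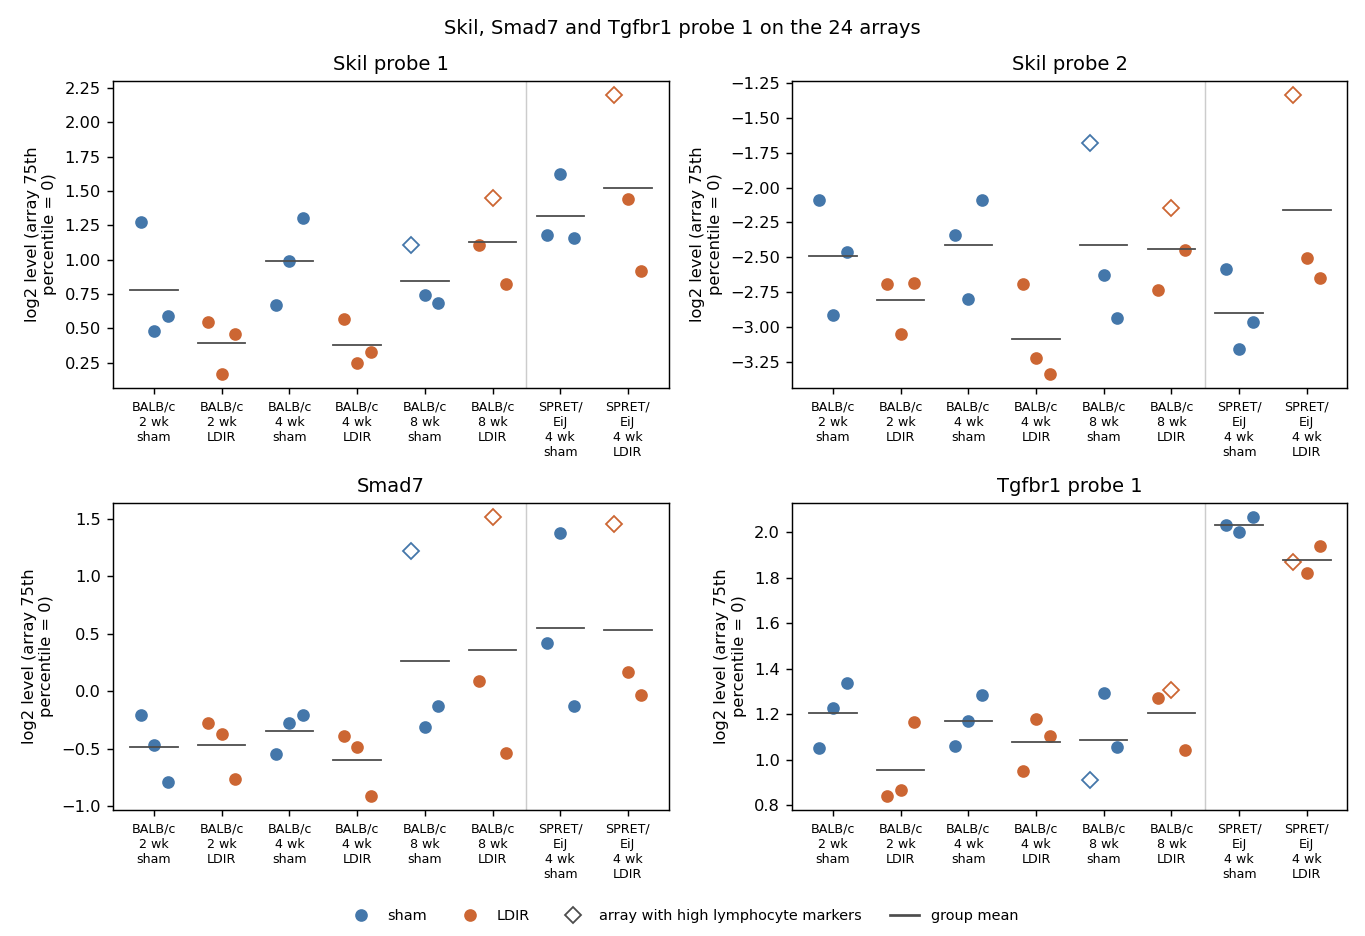
Log2 levels of both Skil probes, Smad7 and Tgfbr1 probe 1 (vertical axes, array 75th percentile = 0) in the 8 groups, drawn as for the ligands. Both Skil probes have lower means after LDIR than in sham in BALB/c at 4 weeks, where probe 1 reads 0.25 to 0.56 after LDIR, and Tgfbr1 probe 1 lies at 1.82 to 2.07 in SPRET/EiJ against 0.95 to 1.28 in BALB/c of the same time.

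**Figure D5:**
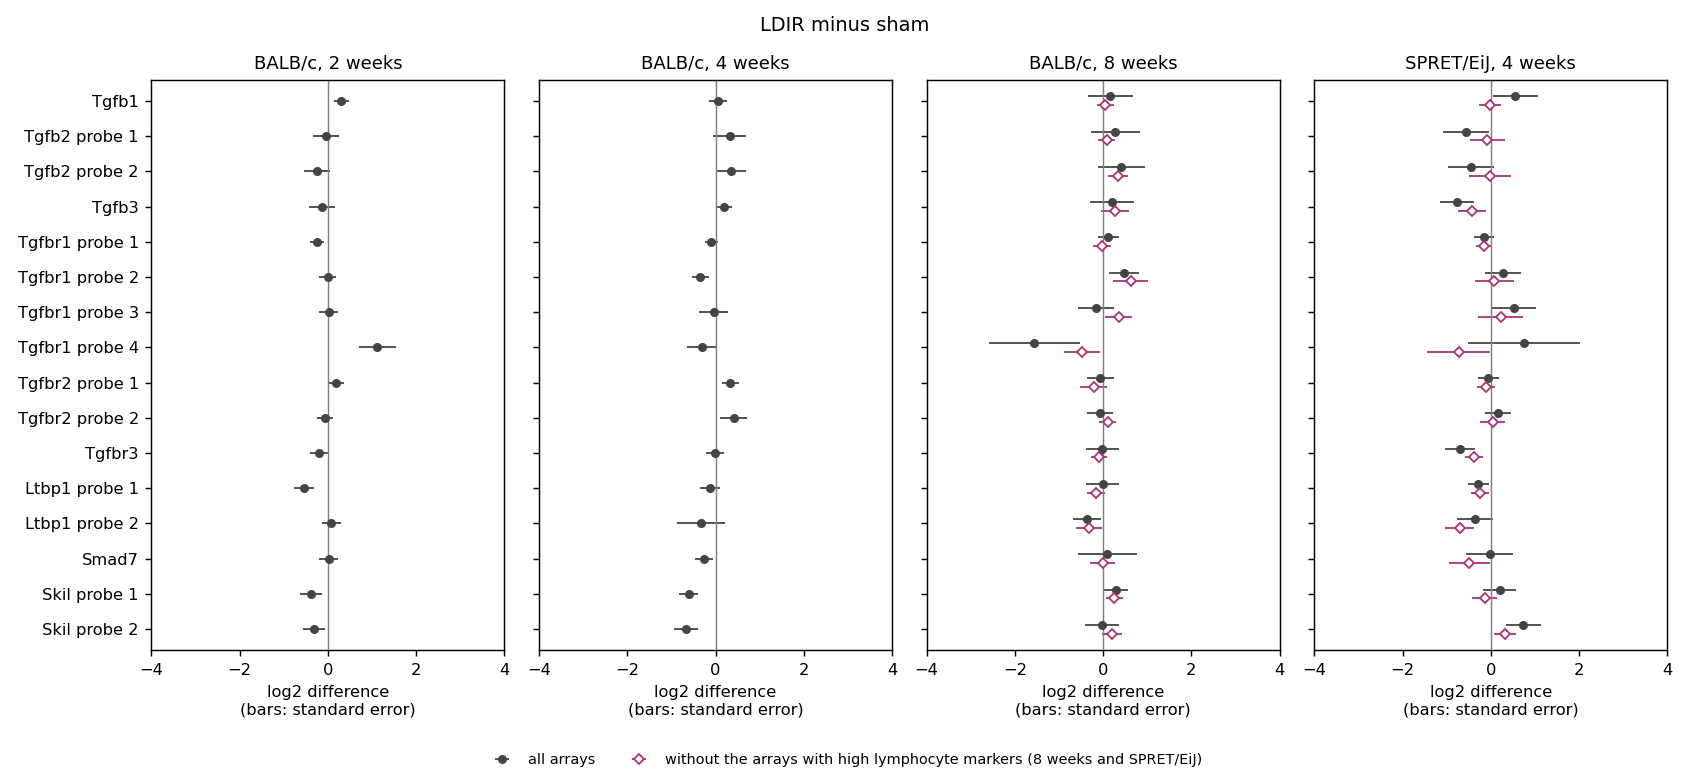
Log2 difference of LDIR minus sham for each member probe (vertical axis), in 3 panels for the BALB/c times and a last one for SPRET/EiJ, with bars for the standard error and open diamonds for the fits without the arrays with high lymphocyte markers. Of the 64 differences 38 lie within 1 standard error of 0, and the long bars of Tgfbr1 probe 4 at 8 weeks and in SPRET/EiJ shorten without those arrays.

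The rest of the pathway was read through 44 further genes, each by its brightest probe. Between sham strains 2 of 44 were called against 8.89% of all probes, and 7 of 44 had an adjusted p below 0.05 against 18.8%, so neither share was above that of all probes. Acta2, the smooth muscle actin of myoepithelium and myofibroblasts, was among the called genes and was 12.8-fold higher in BALB/c (log2 difference 3.68 ± 0.27, limma adjusted p = 0.000487). Of those that passed only the adjusted p, 5 were higher in SPRET/EiJ, namely Lrrc32 and Eng, which bind ligand at the cell surface, the inhibitors Smurf1 and Pmepa1, and the cell cycle inhibitor Cdkn1a, with log2 differences from -2.83 to -0.61. Over the 44 genes the median difference was -0.40, beside -0.10 for the 16 member probes and -0.08 for all probes. Among LDIR mice 3 of 44 were called against 5.67% of all probes, Acta2 and Cdkn1a among them, and 6 without SPRET/EiJ array A, which added Smurf1, Pmepa1 and Postn, against 7.9% of all probes in that fit. Acta2 is also 1 of the 6 basal markers, of which 2 were called higher in sham BALB/c than in sham SPRET/EiJ. All 8 luminal markers had higher means in BALB/c in both strain comparisons. Of these 0 were called between sham strains and 1 between LDIR strains. An adjusted p below 0.05 was reached by 0 of 8 in sham and 4 of 8 in LDIR mice.

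After LDIR in BALB/c 1 of 44 was called at each time, against 3.05%, 4.83% and 1.92% of all probes at 2, 4 and 8 weeks, so these calls are near the background. The extracellular matrix gene Postn was lower at 2 weeks (-0.62). The latent TGF-beta binding protein gene Ltbp2 was lower at 4 weeks (-0.68). The immediate early gene Junb was higher at 8 weeks (0.89), but was not called without the arrays with high lymphocyte markers, where Smad6 (0.68) and Snai1 (-0.83) were called instead, against 4.35% of all probes. In SPRET/EiJ 0 of 44 were called against 2.21%, and 1 without array A against 3.77%, the protease inhibitor gene Timp1 (1.60). The LDIR change differed between strains for 0 of 44 against 3.59% of all probes. It differed between times for 1 of 44, Id1 (1.15), against 3.73%, so this call is also near the background. In none of these comparisons was the adjusted p of any of the 44 below 0.05.

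Over time in sham BALB/c 7 of 44 were called, 5 higher and 2 lower, a share equal to the 15.9% of all probes, with the SMAD gene Smad6 and the target Id1 as the falling genes. The falls were -0.73 and -1.62. Among the rises were those of Junb, 2.29 (limma moderated F, adjusted p = 0.0224), and Cdkn1a, 1.96. Without the 8-week sham array with high lymphocyte markers 12 of 44 were called against 19.9% of all probes. They added Thbs1, which activates latent TGF-beta (1.45, adjusted p = 0.0184), and Acta2 (2.08, adjusted p = 0.0202). Over all sham arrays 5 of 6 white adipocyte markers and 4 of 5 brown adipocyte markers were called lower and 2 of 5 macrophage markers higher. Of 5 endothelial markers 1 was called higher and 1 lower. Without that 8-week array 6 of 6 white and 3 of 5 brown adipocyte markers were called lower and 0 of 5 macrophage markers either way. In that fit 4 of 6 basal markers, Acta2 among them, 3 of 8 luminal markers and 3 of 4 erythrocyte markers were called higher. In the same fit 1 basal, 1 endothelial and 1 lymphocyte marker were called lower. Skeletal muscle markers were not called in either fit, but their summed linear signal varied widely between arrays. In sham mice their sum was 1.56 to 434 at 2 weeks, 1.22 to 24.7 at 4 and 36.8 to 150 at 8 weeks. After LDIR at 8 weeks it was 2.51 to 675. The part of all these cells in the member values over time was not tested.

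Genes whose levels ran most like a ligand were sought over the 18 BALB/c arrays among 21461 probes above background on all of them, as a description. Tgfb1 ran most like Ifi30, Grb2 and Mast3 (r = 0.97 each), Tgfb2 most like Anpep (r = 0.95), Boc and Dcaf12l1, and Tgfb3 most like Rab25, Mpped2 and Mtss1 (r = 0.90 each). Without the 2 BALB/c arrays with high lymphocyte markers none of the Tgfb1 genes stayed among the first 3, which then included Prr12 and Mapk3. Anpep stayed first for Tgfb2 (r = 0.94) and Mtss1 stayed among the first 3 for Tgfb3 (r = 0.91).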

How the data were processed

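Total RNA of mammary gland was hybridised by the authors to 1-colour Agilent arrays, 1 per mouse. The deposited scanner files hold processed intensity (signal) values from Agilent Feature Extraction, already background-corrected, and the authors also deposited log2 values scaled to the 75th percentile. Here log2 of the processed intensity was taken, 3777 outlier spots were left out, spots of a probe were averaged and each array's 75th percentile over 55681 probes was subtracted. The deposited log2 values matched these to 0.01 for 100% of probes after centring. From 57.1% to 72.6% of probes were well above background on an array and 0 spots were saturated. The number of arrays limits the precision.

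Groups and letters came from the labels. Nothing there says whether mice of a group shared a litter or cage, so p-values measure the spread between these arrays. Fits used limma 3.58.1 in R 4.3.3 over all probes, with the arrays of the comparison, eBayes and Benjamini-Hochberg adjustment, and were tested on simulated data. For times, the moderated F was used and the difference given is the largest between times. A difference ± its standard error is on the log2 scale, with 3 arrays per group unless an array is said to be left out. "At least" folds set the brighter mean against the lowest signal well above background. All member probes are named, the other pathway genes where called, and the 3 most similar genes per ligand. A few genes that the lists and counts include are not reported here by name. The members and lists were chosen with earlier results of these data known. The arrays lay on 3 slides. The labels state no pairing, and letters were taken to pair the samples where same-letter arrays deviate together (r above 0.1 for every letter). Over detected probes this held in BALB/c at 2 weeks (r = 0.17 to 0.48) and in no other comparison. Over all probes it did not hold at 2 weeks either (r = -0.03 to 0.14). Alternatives were another background correction, quantile normalization, the authors' values, outliers kept, a filter on dim probes, the methods' t-test, letter and slide as blocks, 1 fit of all 24 arrays and each array left out. Fits without the 3 arrays with high lymphocyte markers, and over time in LDIR in place of sham arrays, were chosen after seeing the data.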

Additional observations from a re-analysis of the deposited data

Results flagged for a closer look

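For 2 member probes the LDIR change at 4 weeks differed between BALB/c and SPRET/EiJ by an interaction term in limma. Tgfb3 differed by 0.97 on the log2 scale (adjusted p = 0.955), and by 0.63 without SPRET/EiJ LDIR array A, where it was no longer called (adjusted p = 0.902). With 1 array left out at a time it was called in 4 of 12 fits. Skil probe 2 differed by -1.41 (adjusted p = 0.955), and by -0.999 without that array, where it was still called (adjusted p = 0.902), as it was in 12 of 12 such fits. Over the whole array 3.59% of probes passed the same thresholds.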

How the results depend on the processing

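The number of member probes called depended on several choices. Between sham strains it was 0, and 2 with normexp or with slide as a random block, and 1 with dim probes left out, with the methods' t-test or in 1 fit of all 24 arrays. Between LDIR strains it was 0, and 1 with normexp or the t-test and 2 in the 24-array fit. For LDIR against sham in BALB/c at 2 weeks it was 1, and 0 with normexp, quantile normalization, dim probes left out, the t-test, or all 24 arrays with or without slide. At 4 weeks it was 2, and 0 with normexp, in the 24-array fit or with the replicate block, and 1 with the t-test or with all arrays and slide. In SPRET/EiJ it was 0, and 2 with normexp and 1 in the 24-array fit with or without slide. The strain difference of the LDIR change was 2, and 1 with the authors' values, the t-test, the replicate block, the 24-array fit or without the arrays with high lymphocyte markers. The difference between times was 0, and 1 with normexp, quantile normalization, dim probes left out, the replicate block or without those arrays. Over time it was 3, and 0 with slide as a block, alone or over 24 arrays, and 5 without those arrays or on LDIR arrays. The cause was not tested.

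With 1 array left out the counts ran from 0 to 0 between strains and in SPRET/EiJ, 0 to 1 at 2 and at 8 weeks, 0 to 2 at 4 weeks, 1 to 3 for the strain difference, 0 to 2 for the difference between times and 1 to 5 over time. No member value that was called changed sign under these settings or with 1 array left out, while some values that were not called did. Over detected probes the replicate letters met the rule for pairing at 2 weeks, where the replicate block left 1 call (Tgfbr1 probe 4, limma, adjusted p = 0.731). Elsewhere the letter was only shared, and at 4 weeks the block ended both Skil calls (adjusted p = 0.672). At 8 weeks the LDIR change had a median of -0.14 over all probes, and 0.01 after quantile normalization. Dim probes such as Tgfbr1 probe 4 carry only bounds.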
